A study of Mus musculus with 4 samples.

Results

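The step examined here is the exposure of cultured mouse liver cells, labelled as primary hepatocytes, to 5-azacytidine followed by trichostatin A, read as the RNA of stage S1 set against that of stage S0. All genes with at least 1 CPM in S0 or S1 (counts scaled to library size with TMM factors) were taken, which gave 14810 of the 30138 entries of the deposited count table. The series follows these cells on the way to insulin-producing cells, with Malat1, miR-124-3p and PI3K as its stated subject, and each stage is 1 library. S1 cells had received 5-azacytidine for 48 h, at a dose the labels print as 5 mM, and then 100 nM trichostatin A for 24 h. S0 cells had been kept in medium free of fetal bovine serum with 2% knockout serum, β-mercaptoethanol, L-glutamine, non-essential amino acids, B-27, N-2 and 20 ng/ml each of the growth factors bFGF and EGF. Before that, the cells of both stages had grown in DMEM rich in glucose that held 10% serum. The labels list the steps in sequence, so S1 cells were also longer in culture than S0 cells, and a culture kept for that time without the inhibitors is not analysed here. The labels used here give neither the strain and age of the mice nor which additions to the medium continued in S1, and do not say whether the stages came from separate preparations. The later stages S2 (7 days of retinoic acid, labelled 2 mM, with insulin, transferrin and selenium) and S3 (7 days of 10 mM nicotinamide without both growth factors) are used only to show levels.

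5-Azacytidine is a cytidine analogue that is built into nucleic acids and traps DNA methyltransferases, so that dividing cells lose DNA methylation. Trichostatin A blocks zinc-dependent histone deacetylases, which raises the acetylation of histones and of other proteins such as tubulin. Methylated CpG sites and deacetylated histones at promoters are known to keep many tissue-specific genes silent, and the agents are used together to loosen that silencing before cells are directed to another fate. Hepatocytes in culture are known to lose liver functions over days, and liver preparations can carry Kupffer cells, stellate cells and other cells of the organ.

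With 1 library per stage there is no measure of the spread between cultures, so no test was made and no difference has a replicate check. S1 held 26655887 reads in genes and S0 27602967. A fold is given with its exact 95% interval on the counts (Clopper-Pearson), which covers counting error only, and "higher" or "lower" in S1 means that the whole interval lay beyond 2-fold. A gene with 0 reads was set against a floor of 3 reads, 0.103 CPM in S1 and 0.112 CPM in S0, and its fold is written as "at least". In bulk RNA, fewer cells of a type and less RNA per cell cannot be told apart.

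The labelled cell type was checked against marker lists. Of 14 hepatocyte markers 10 passed the limit of 1 CPM, and their levels summed to 4161 CPM in S1 and 3790.3 CPM in S0. Albumin (Alb) stood at 1724 CPM in S1 and 234 CPM in S0 and the liver nuclear receptor gene Hnf4a at 38.9 CPM in S1 and 108 CPM in S0. Of the genes of mature liver metabolism on that list, Ass1, of the urea cycle, was present at 94.5 CPM in S1 and 135 CPM in S0, and Cyp3a11, a drug-metabolising enzyme, at 23.0 CPM in S1 and 5.32 CPM in S0. Cps1, also of the urea cycle, had 84 reads in S1 and 4 in S0. Others were absent or nearly so, with 0 reads of Tat in both libraries, 1 read of Cyp2e1 in each, 0 reads in S1 and 1 in S0 of G6pc, and 0 in S1 and 2 in S0 of Pck1. All 14 macrophage and Kupffer cell markers passed, with a sum of 3340.4 CPM in S1 and 14277 CPM in S0, and 11 of them were lower and 1 higher. In S0 the macrophage sum was thus above the hepatocyte sum, which goes against the label, and the cells are called cultured liver cells here. Of 11 stellate cell and fibroblast markers, 10 passed and summed to 1559 CPM in S1 and 5690.3 CPM in S0 (4 lower, 2 higher). The 7 mesothelial markers, 2 of them keratins that other epithelial cells also express, summed to 7105 CPM in S1 and 3911 CPM in S0 with 0 called. The 7 cholangiocyte markers summed to 1573 CPM in S1 and 1577 CPM in S0, and 4 of 6 endothelial markers passed with sums of 12.7 CPM in S1 and 20.6 CPM in S0. No marker of the macrophage, stellate, cholangiocyte, mesothelial or endothelial lists was at 0 in either library. Lyz2 made up most of the macrophage sum, with 2429 CPM in S1 and 8936 CPM in S0. Acta2 made up most of the stellate sum in S0, with 534 CPM in S1 and 3895 CPM in S0. Both sums were lower in S1, as were many genes named here, and the part of these cells in those results was not tested.

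Of the 14810 genes, 1885 were higher in S1 (12.7%) and 1985 lower (13.4%). The remaining 10940 lay within 2-fold or had an interval that crossed it. The median log2 ratio over all genes was -0.04, and it stood at 0.14 without TMM factors, a shift of 0.19, where 2289 genes were higher and 1629 lower. With the most abundant genes left out of the library sizes, 59.0% of the calls were higher, against 48.7% with TMM factors. These figures are the background for every count that follows.

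**Figure D1:**
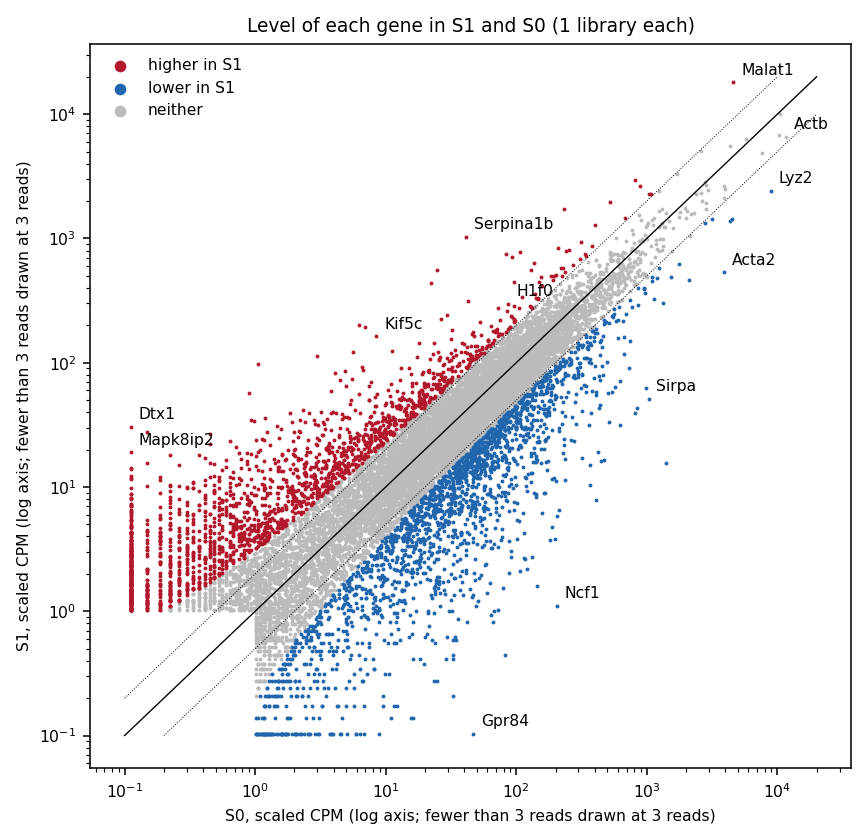
Scaled CPM of the 14810 genes in S1 (vertical) and S0 (horizontal), both on log axes, with red points higher in S1, blue points lower and grey points neither. The solid line marks equal levels and the dotted lines 2-fold differences. The red points crowd the left side, where S0 is near 0, and the blue points reach far into levels over 100 CPM in S0.

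The direction of change differed with the level of the gene. Among the 2411 genes over 100 CPM in S0, 423 were lower in S1 and 41 higher, a choice by S0 level that by itself favours lower values in S1. Grouped by the mean of both libraries, 768 of 2633 genes under 3 CPM were higher and 284 lower, while among 4132 genes at 30 to 100 CPM 213 were higher and 554 lower. Of the genes under 3 CPM, 1077 reached 1 CPM in S1 alone and 607 in S0 alone, so the limit fixed their direction. Restricted to genes with at least 1 CPM in both libraries, 988 were higher and 1626 lower. With that restriction, 50 of 949 genes under a mean of 3 CPM were higher and 19 lower. At 30 to 100 CPM 213 of 4128 were higher and 550 lower. The many higher calls under 3 CPM thus came largely through the limit, and among well expressed genes more were lower than higher.

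**Figure D2:**
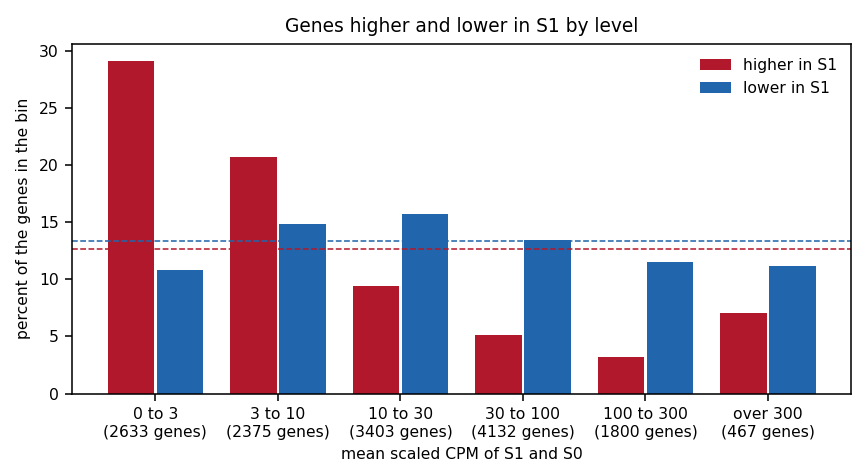
Percent of genes higher (red) and lower (blue) in S1, in 6 bins of the mean scaled CPM of both libraries, with the percent over all genes as dashed lines (12.7% and 13.4%). The red bars are tallest in the lowest bins, and the blue bars exceed the red ones from 10 CPM upward.

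Outside the gene lists, genes were ranked by the interval bound nearest to no change. The genes named next were chosen by their values and are given as single genes. Mapk8ip2 (ENSMUSG00000022619, chromosome 15), a scaffold of the JNK kinase pathway, had 552 reads in S1 and 0 in S0 and was at least 169-fold higher. Dtx1 (ENSMUSG00000029603, chromosome 5), a ubiquitin ligase of the Notch pathway, had 30.3 CPM in S1 and 0.0749 CPM in S0 and was 405-fold higher (112 to 3351). At the later stages Dtx1 stood at 3.01 CPM in S2 and 3.12 CPM in S3, and Mapk8ip2 at 0.501 CPM in S2 and 0.470 CPM in S3. Kcnh3, a voltage-gated potassium channel gene, had 14.2 CPM in S1 and 0.112 CPM in S0 and was 126-fold higher (42.8 to 614). Snap25, which encodes a fusion protein of synaptic vesicles, had 15.7 CPM in S1 and 0.150 CPM in S0 and was 104.9-fold higher (40.7 to 387). Disp2, related to the Dispatched proteins that release lipid-modified ligands, had 56.9 CPM in S1 and 0.899 CPM in S0 and was 63.3-fold higher (42.4 to 99.1). The lipid receptor gene Lpar3 (186 reads in S1 and 0 in S0) was at least 57.0-fold higher, and the long non-coding RNA gene Miat (183 reads in S1 and 0 in S0) at least 56.1-fold higher. Usp44, a deubiquitinase of the spindle checkpoint, had 139 reads in S1 and 0 in S0 and was at least 42.6-fold higher. Ppp2r2c, a regulatory subunit of protein phosphatase 2A, had 26.8 CPM in S1 and 0.449 CPM in S0 and was 59.6-fold higher (33.9 to 116). Nefl, the light chain of neurofilaments, had 27.7 CPM in S1 and 0.150 CPM in S0 and was 185-fold higher (72.0 to 681). Chga, the granule protein chromogranin A of endocrine cells, had 256 reads in S1 and 0 in S0, and Cbln1 and Grid1, a secreted synapse organiser and a glutamate receptor-like partner of its family, 211 reads in S1 and 0 in S0 and 206 reads in S1 and 0 in S0. Amph, which encodes the endocytosis protein amphiphysin, had 11.6 CPM in S1 and 0.0374 CPM in S0 and was 310.0-fold higher (55.3 to 12281). Later Chga stood at 0.228 CPM in S2 and 2.26 CPM in S3, and Nefl at 1.503 CPM in S2 and 0.683 CPM in S3.

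In the other direction Gpr84 (ENSMUSG00000063234, chromosome 15), a receptor for medium-chain fatty acids on myeloid cells, came first with 2 reads in S1 and 1248 in S0 and was 678-fold lower (187 to 5607). Ncf1 (ENSMUSG00000015950, chromosome 5), a cytosolic subunit of the phagocyte oxidase, had 1.10 CPM in S1 and 205 CPM in S0 and was 186-fold lower (132 to 272). The adapter gene Dok2 had 0.827 CPM in S1 and 66.6 CPM in S0 (80.6-fold lower, 54.0 to 126). Fermt3, the kindlin that activates integrins in blood cells, had 3.79 CPM in S1 and 198 CPM in S0 (52.3-fold lower, 43.3 to 63.8). All of these were well covered in S0, so the width of their intervals comes from the few reads in S1. Cx3cr1, the fractalkine receptor gene, had 1.03 CPM in S1 and 72.4 CPM in S0 and was 70.1-fold lower (49.0 to 104). The purine receptor genes P2ry12 and P2ry13 had 0.276 CPM in S1 and 23.3 CPM in S0 and 0.276 CPM in S1 and 24.6 CPM in S0. Arg1, the arginase of both hepatocytes and alternatively activated macrophages, had 0.999 CPM in S1 and 67.6 CPM in S0 and was 67.7-fold lower (46.9 to 101). F13a1, the catalytic chain of coagulation factor XIII, was 69.5-fold lower (47.6 to 106), Hk3, a hexokinase of blood cells, 55.2-fold lower (43.1 to 71.9), and the transcription factor gene Tfec 73.6-fold lower (42.8 to 139). Tlr7, a receptor for viral RNA, had 1.58 CPM in S1 and 145 CPM in S0 and was 91.4-fold lower (68.4 to 125). Ccl9, a chemokine of myeloid cells, had 7.92 CPM in S1 and 411 CPM in S0 (51.9-fold lower, 45.6 to 59.4). The genes above were picked by their values, so their folds cannot be set against that of the macrophage markers. The macrophage marker sum, most of it Lyz2, was also lower, at 3340.4 CPM in S1 and 14277 CPM in S0. Of its 14 markers 11 were lower and 1 higher. They ranged from Msr1 (15.7 CPM in S1 and 1413 CPM in S0) to Marco (169 CPM in S1 and 73.5 CPM in S0).

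The promoters of the 2 farthest genes in each direction are shown because 5-azacytidine acts on the methylation of CpG sites, and they differ in how many such sites they hold. The sequences are RefSeq's, build GRCm38.p6, from 250 bases before to 50 after the annotated start, in the direction of transcription, with each CG in capitals. They lie at chr15:89453661-89453960 on the plus strand (Mapk8ip2), chr5:120711620-120711919 on the minus strand (Dtx1), chr15:103310389-103310688 on the minus strand (Gpr84) and chr5:134229576-134229875 on the minus strand (Ncf1).
Mapk8ip2: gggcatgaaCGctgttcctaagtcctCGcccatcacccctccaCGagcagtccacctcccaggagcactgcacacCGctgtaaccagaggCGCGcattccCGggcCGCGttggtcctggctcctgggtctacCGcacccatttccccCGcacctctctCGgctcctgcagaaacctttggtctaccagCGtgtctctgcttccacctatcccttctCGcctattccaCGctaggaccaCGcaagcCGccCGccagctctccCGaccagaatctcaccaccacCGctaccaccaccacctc
Dtx1: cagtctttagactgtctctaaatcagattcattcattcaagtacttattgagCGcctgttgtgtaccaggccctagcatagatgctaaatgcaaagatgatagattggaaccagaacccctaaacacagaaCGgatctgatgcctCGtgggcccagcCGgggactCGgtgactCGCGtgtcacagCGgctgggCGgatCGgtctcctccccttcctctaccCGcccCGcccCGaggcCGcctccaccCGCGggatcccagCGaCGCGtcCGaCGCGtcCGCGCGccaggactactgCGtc
Gpr84: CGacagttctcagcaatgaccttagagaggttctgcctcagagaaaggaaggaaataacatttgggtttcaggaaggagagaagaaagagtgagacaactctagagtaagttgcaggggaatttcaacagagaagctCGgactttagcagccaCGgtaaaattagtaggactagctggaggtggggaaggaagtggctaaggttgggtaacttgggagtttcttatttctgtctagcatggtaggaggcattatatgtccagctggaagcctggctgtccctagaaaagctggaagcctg
Ncf1: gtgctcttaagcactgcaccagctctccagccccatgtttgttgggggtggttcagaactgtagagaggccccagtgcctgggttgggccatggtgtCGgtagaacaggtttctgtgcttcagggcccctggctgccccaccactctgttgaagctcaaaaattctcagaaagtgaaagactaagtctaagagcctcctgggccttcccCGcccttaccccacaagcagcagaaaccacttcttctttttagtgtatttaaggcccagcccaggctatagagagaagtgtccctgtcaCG
Mapk8ip2 and Dtx1, both higher in S1, held 20 and 26 CG sites in these 300 bases, which is 0.784 and 1.00 of the number their C and G content gives by chance order. Gpr84 and Ncf1, both lower, held 3 each, a ratio of 0.204 and 0.138. Methylation itself was not measured in these libraries.

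Over all genes the promoters could be compared only in part. Of 13403 protein-coding genes outside chromosomes 18 and M, 81.5% had a promoter in the RefSeq table. Among the higher genes the share was 78.9%, under the 80% set as the least for such a check. The check of the higher genes is therefore void, and their values are given below as a description only. Promoters of 1475 lower genes had a median of 13 CG sites and a median observed over expected ratio of 0.571, and those of 8123 genes called neither way had 21 and 0.781. A ratio of 0.6 or more was found in 47.8% of the lower genes and in 75.8% of the others. The gap was present at matched level too, with 58.7% against 84.0% among genes at 30 to 100 CPM and 53.9% against 86.9% at 100 to 300 CPM. The lower genes thus had promoters poorer in CpG than genes that were called neither way. Promoters of 1321 higher genes had a median ratio of 0.681, and 62.2% of them had a ratio of 0.6 or more. Both values also lay under those of the genes called neither way. The lower CpG content was thus not seen in the lower genes alone, though the higher genes were too thinly covered for a firm comparison.

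Short motifs were counted on both strands of the same windows. GAGGAAG, the core bound by the myeloid factor PU.1 and other ETS factors, was in 19.1% of the lower genes' promoters, 12.6% of those called neither way and 13.5% of all 27025 promoters of the table. In the same order, TTTGAA, the CHR element of mitotic genes, was in 19.3%, 11.0% and 18.1%. TATAAA was in 12.2%, 6.205% and 14.2%, and TGANTCA, the AP-1 site, in 7.73%, 4.60% and 7.93%. GGGCGG, the SP1 site, went the other way, with 51.4% of the lower genes, 65.9% of those called neither way and 35.9% of all. The remaining 6 motifs were CACGTG (the E-box), CCAAT (the CCAAT box), TTCCCGC (an E2F site), CAGCACC (part of the REST site), TGACNNNGC (the NRF2 site) and TGACGTCA (the cyclic AMP response site). Their shares in the lower genes and in those called neither way differed by less than the shares of the motifs named. Median GC content was 57% in the lower genes and 61.3% in the others, and base composition alone moves such shares. Of the promoters printed, that of Dtx1 held GGGCGG at 3 positions and GAGGAAG and CCAAT at 1 each, those of Mapk8ip2 and Ncf1 held GGGCGG at 1, and that of Gpr84 held none of the 11 motifs. A match is a string of letters and no proof of binding.

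Some genes had few or no reads in S0 and were countable in S1. In S0, 274 of the genes kept had 3 reads or fewer, 96 of them 0, and all reached 1 CPM in S1 by the way they were chosen. The reverse, 3 reads or fewer in S1, held for 64 genes, 11 of them with 0 reads. The first set comprised 241 protein-coding genes, 17 annotated and 16 unannotated long non-coding RNAs, and 252 of the 274 were in none of the lists. Its median level was 1.89 CPM in S1 and 0.0374 CPM in S0, and the highest was Dtx1. At the later stages 28 of them (10.2%) were above 1 CPM in S2 and 35 (12.8%) in S3, and their choice for a low S0 and an S1 level over the limit by itself favours low counts elsewhere. The vesicular zinc transporter gene Slc30a3 had 154 reads in S1 and 0 in S0, with 0.228 CPM in S2 and 0.640 CPM in S3. The unannotated transcript MSTRG.19865 on chromosome 7 had 203 reads in S1 and 0 in S0. Among genes with 0 reads in S1 the highest in S0 was Sirpb1b, a signal regulatory protein of myeloid cells (0 reads in S1 and 136 in S0, at least 49.3-fold lower). Cd207, the langerin of Langerhans cells, had 0 reads in S1 and 37 in S0, the kinase gene Bmx 0 reads in S1 and 28 in S0. The MHC class I-like gene H2-M2 had 0 reads in S1 and 31 in S0.

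By the size of the change in CPM, which is not per gene length, a few abundant transcripts moved most. The largest rise was that of the nuclear long non-coding RNA Malat1, with 18013 CPM in S1 and 4602 CPM in S0. Prdx1, the peroxide reductase, had 2956 CPM in S1 and 809 CPM in S0 and was 3.65-fold higher (3.60 to 3.71). The lipase gene Abhd2 had 2645 CPM in S1 and 889 CPM in S0 (2.98-fold higher, 2.93 to 3.02). Akap12, a scaffold of protein kinase A, had 1983 CPM in S1 and 521 CPM in S0 (3.81-fold higher, 3.74 to 3.88). Alb and Serpina1b, which encode the secreted liver proteins albumin and an alpha-1-antitrypsin, were 7.38-fold higher (7.18 to 7.57) and 24.9-fold higher (23.4 to 26.5), with 1034 CPM in S1 and 41.6 CPM in S0 for Serpina1b. The keratin genes Krt8 (3308 CPM in S1 and 1692 CPM in S0) and Krt18 (2392 CPM in S1 and 1244 CPM in S0) had large differences in CPM but not beyond 2-fold. The same held for the chaperone gene Clu (5050.0 CPM in S1 and 2613 CPM in S0) and the ferritin light chain gene Ftl1 (5575 CPM in S1 and 4361 CPM in S0). Afp, the fetal liver protein alpha-fetoprotein, had 2270.2 CPM in S1 and 1073 CPM in S0 and was 2.12-fold higher (2.09 to 2.14). Ctsl, a lysosomal protease gene, was 2.22-fold higher (2.19 to 2.25). Those of cathepsins D and B were not called, with 4915 CPM in S1 and 7599 CPM in S0 for Ctsd and 2489.6 CPM in S1 and 3950.3 CPM in S0 for Ctsb. The largest falls were of the lysozyme gene Lyz2 (2429 CPM in S1 and 8936 CPM in S0), of Actb (6559 CPM in S1 and 11760.4 CPM in S0) and of the translation factor gene Eef1a1 (6847 CPM in S1 and 10395 CPM in S0), the last 2 of them within 2-fold. Acta2, the smooth muscle actin, had 534 CPM in S1 and 3895 CPM in S0 and was 7.29-fold lower (7.17 to 7.41). Tagln, the actin-binding transgelin, had 462 CPM in S1 and 2114 CPM in S0 (4.58-fold lower, 4.49 to 4.67). Apob, the apolipoprotein of very low density lipoprotein, was 2.19-fold lower (2.16 to 2.22) with 1439 CPM in S1 and 3151 CPM in S0, in the other direction from Alb.

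Genes that histone deacetylase inhibitors are known to change in other cell systems were mostly not called, as were most genes over all. Of 30 listed, 29 were measured, with 5 higher (17.2%, against 12.7% over all genes) and 2 lower (6.90%, against 13.4%). The linker histone gene H1f0, which such inhibitors induce in many cell lines, had 297 CPM in S1 and 87.1 CPM in S0 and was 3.42-fold higher (3.26 to 3.58). The metallothionein genes Mt2 (242 CPM in S1 and 29.3 CPM in S0) and Mt1 (176 CPM in S1 and 47.0 CPM in S0), whose proteins bind zinc and copper, were 8.26-fold higher (7.67 to 8.90) and 3.74-fold higher (3.52 to 3.99). Gadd45a, a stress-induced gene, was 2.61-fold higher (2.27 to 3.02) with 25.3 CPM in S1 and 9.70 CPM in S0. The cell cycle inhibitor gene Cdkn1a, often used as a mark of deacetylase inhibition, was not among them, at 40.0 CPM in S1 and 83.9 CPM in S0. Gsn, another common response gene, had 754 CPM in S1 and 559 CPM in S0. Txnip, the thioredoxin-binding protein gene, had 288 CPM in S1 and 299.6 CPM in S0. Thbs1, the matrix protein thrombospondin, was 3.14-fold lower (3.10 to 3.18). The linker histone gene Hist1h1c was 2.19-fold lower (2.12 to 2.26) with 187 CPM in S1 and 410.1 CPM in S0.

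The histone genes split by kind. Of 60 measured genes of the replicative clusters, whose transcripts are made in S phase, 53 were lower and 0 higher, with a median log2 ratio of -2.31. Of the 10 other histone genes 2 were higher, H1f0 and H1fx (3.72 CPM in S1 and 0.899 CPM in S0), and 2 lower, H2afx (22.9 CPM in S1 and 149 CPM in S0), the variant marked at DNA breaks, and H2afy2 (2.14 CPM in S1 and 6.63 CPM in S0). The replacement histone genes H3f3a (159 CPM in S1 and 128 CPM in S0) and H3f3b (475 CPM in S1 and 454 CPM in S0) were not called. Replicative histone genes are near copies of each other, and reads may be split among them.

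Among enzymes that write and read histone marks, the calls were mostly lower ones, and most members were not called. Of 27 acetyltransferase and bromodomain genes 9 were lower and 1 higher (median log2 ratio -0.73). Of 41 histone methyltransferase and demethylase genes, 10 were lower and 0 higher (median -0.64), with 13.4% lower over all genes. Without TMM factors the lower ones were 6 and 7. Crebbp, a general acetyltransferase, had 46.7 CPM in S1 and 122 CPM in S0 and was 2.60-fold lower (2.44 to 2.77). Its relative Ep300 had 41.1 CPM in S1 and 87.8 CPM in S0 and was not called. Atad2, a bromodomain protein of dividing cells, was 4.85-fold lower (4.52 to 5.22) with 31.2 CPM in S1 and 152 CPM in S0. Baz2b and Baz1a, of chromatin remodelling complexes, were 4.68-fold lower (4.24 to 5.16) and 4.08-fold lower (3.78 to 4.41). Cecr2, also of a remodelling complex, was the 1 higher gene of that list, with 4.34 CPM in S1 and 0.636 CPM in S0. Among the methyltransferases Suv39h1, which writes the H3K9 mark of heterochromatin, had 11.99 CPM in S1 and 38.1 CPM in S0 and was 3.18-fold lower (2.82 to 3.61). Suv420h1, which writes H4K20 methylation, had 15.5 CPM in S1 and 56.8 CPM in S0 and was 3.66-fold lower (3.29 to 4.07). Kmt2b and Setd1b, of the H3K4 methyltransferase complexes, were 2.99-fold lower (2.64 to 3.38) and 3.76-fold lower (2.69 to 5.34). In contrast 25 of 27 Polycomb genes were not called, Ezh1 with 42.4 CPM in S1 and 41.5 CPM in S0 and Ezh2 with 24.3 CPM in S1 and 45.5 CPM in S0 among them. Only Cbx7, a reader of the H3K27 mark, was higher (18.3 CPM in S1 and 5.50 CPM in S0, 3.32-fold higher, 2.76 to 4.02) and only Phf19, a PRC2 accessory protein gene, lower (0.930 CPM in S1 and 15.3 CPM in S0, 16.5-fold lower, 11.2 to 25.3) in that list.

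The chromatin remodelling complex SWI/SNF changes its subunits as neurons form. Of 23 measured, 3 were higher (13.04%, near the 12.7% over all genes) and 6 lower (26.1%, against 13.4%). But without TMM factors 3 were higher and 1 lower, so the lower count rests on the scaling. Higher were Dpf1 and Dpf3, which encode subunits of the neuronal form, with 9.20 CPM in S1 and 1.83 CPM in S0 for Dpf1 and 4.13 CPM in S1 and 0.150 CPM in S0 for Dpf3, 5.01-fold higher (3.69 to 6.94) and 27.6-fold higher (10.5 to 103). The ATPase gene Smarca2 had 61.3 CPM in S1 and 25.2 CPM in S0 and was 2.44-fold higher (2.23 to 2.67). The alternative ATPase gene Smarca4 was not called (243 CPM in S1 and 324 CPM in S0). Neither was Actl6a, the actin-like subunit of dividing progenitors (29.5 CPM in S1 and 53.7 CPM in S0), and its neuronal counterpart Actl6b had 3 reads in S1 and 0 in S0. Arid1a, the DNA-binding subunit, was 3.54-fold lower (3.25 to 3.86) with 23.7 CPM in S1 and 83.9 CPM in S0. Later Dpf1 had 1.14 CPM in S2 and 0.854 CPM in S3, Dpf3 0.455 CPM in S2 and 0.128 CPM in S3 and Smarca2 68.0 CPM in S2 and 68.2 CPM in S3.

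The calls of the microtubule list were mostly higher ones and those of the actin list mostly lower ones. Of 40 tubulin and microtubule protein genes 12 were higher and 3 lower, with a median log2 ratio of 0.96. Of 40 actin cytoskeleton and SRF target genes 1 was higher and 14 lower, with a median of -0.90. Without TMM factors the actin list had 1 higher and 9 lower, with a median of -0.73, and the microtubule list 18 higher and 3 lower. Kif5c, a kinesin heavy chain of neurons, had 163 CPM in S1 and 8.50 CPM in S0 and was 19.2-fold higher (16.8 to 22.0). Mapt, which encodes tau, had 18.6 CPM in S1 and 1.95 CPM in S0 (9.55-fold higher, 7.18 to 12.96). Stmn2 and Stmn3, of the stathmins of growing axons, had 56.3 CPM in S1 and 6.29 CPM in S0 and 4.65 CPM in S1 and 0.112 CPM in S0. Their relative Stmn1, which is high in dividing cells, was 3.91-fold lower (3.52 to 4.36) with 14.9 CPM in S1 and 58.4 CPM in S0. Among the tubulin genes, neuronal Tubb3 had 28.9 CPM in S1 and 3.82 CPM in S0 (7.58-fold higher, 6.16 to 9.40). The widely expressed Tubb5 had 628 CPM in S1 and 1763 CPM in S0 (2.81-fold lower, 2.76 to 2.86). Tuba1a (609 CPM in S1 and 721 CPM in S0), Tubb2b (58.1 CPM in S1 and 42.9 CPM in S0) and the genes Tubb2a (169.8 CPM in S1 and 85.2 CPM in S0) and Map1a (79.5 CPM in S1 and 39.8 CPM in S0) were not called, the last pair with folds close to the limit. By the deposited RPKM, which is per gene length, Kif5c stayed under Tubb5 in both stages, with 9.38 RPKM in S1 and 0.435 RPKM in S0 for Kif5c and 93.6 RPKM in S1 and 234 RPKM in S0 for Tubb5.

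On the actin side Coro1a, an actin regulator of blood cells, had 16.6 CPM in S1 and 143 CPM in S0 and was 8.64-fold lower (7.85 to 9.52). Capg, a capping protein of macrophages, had 48.5 CPM in S1 and 283 CPM in S0 (5.84-fold lower, 5.51 to 6.18). The sum of macrophage markers, most of it Lyz2, was lower in S1 too. Others on the list are known from contractile cells or are expressed widely, among them Myl9, the smooth muscle myosin light chain (114 CPM in S1 and 442 CPM in S0, 3.86-fold lower, 3.72 to 4.02), Flna, the cross-linker filamin A (3.13-fold lower, 3.10 to 3.17), and Tpm1, a tropomyosin (2.10-fold lower, 2.08 to 2.13). The stellate cell and fibroblast marker sum was 1559 CPM in S1 and 5690.3 CPM in S0. Most of it in S0 was Acta2, itself an actin gene (534 CPM in S1 and 3895 CPM in S0), so the sum is no separate measure here. Of the 10 stellate markers measured 4 were lower, 2 higher and 4 not called, Dcn (30.2 CPM in S1 and 29.9 CPM in S0) among the last. The part of these cells was not tested. Srf itself, the factor that drives many genes of the actin list, was 3.27-fold lower (3.03 to 3.54) with 30.7 CPM in S1 and 100.4 CPM in S0. Anln, an actin-binding protein of dividing cells, was 3.75-fold lower (3.53 to 3.98). Vcl (593 CPM in S1 and 614 CPM in S0) and Actn1 (601 CPM in S1 and 785 CPM in S0), of cell-matrix contacts, were not called. Pfn2, a profilin of neurons, was the 1 higher gene (50.4 CPM in S1 and 19.3 CPM in S0).

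**Figure D3:**
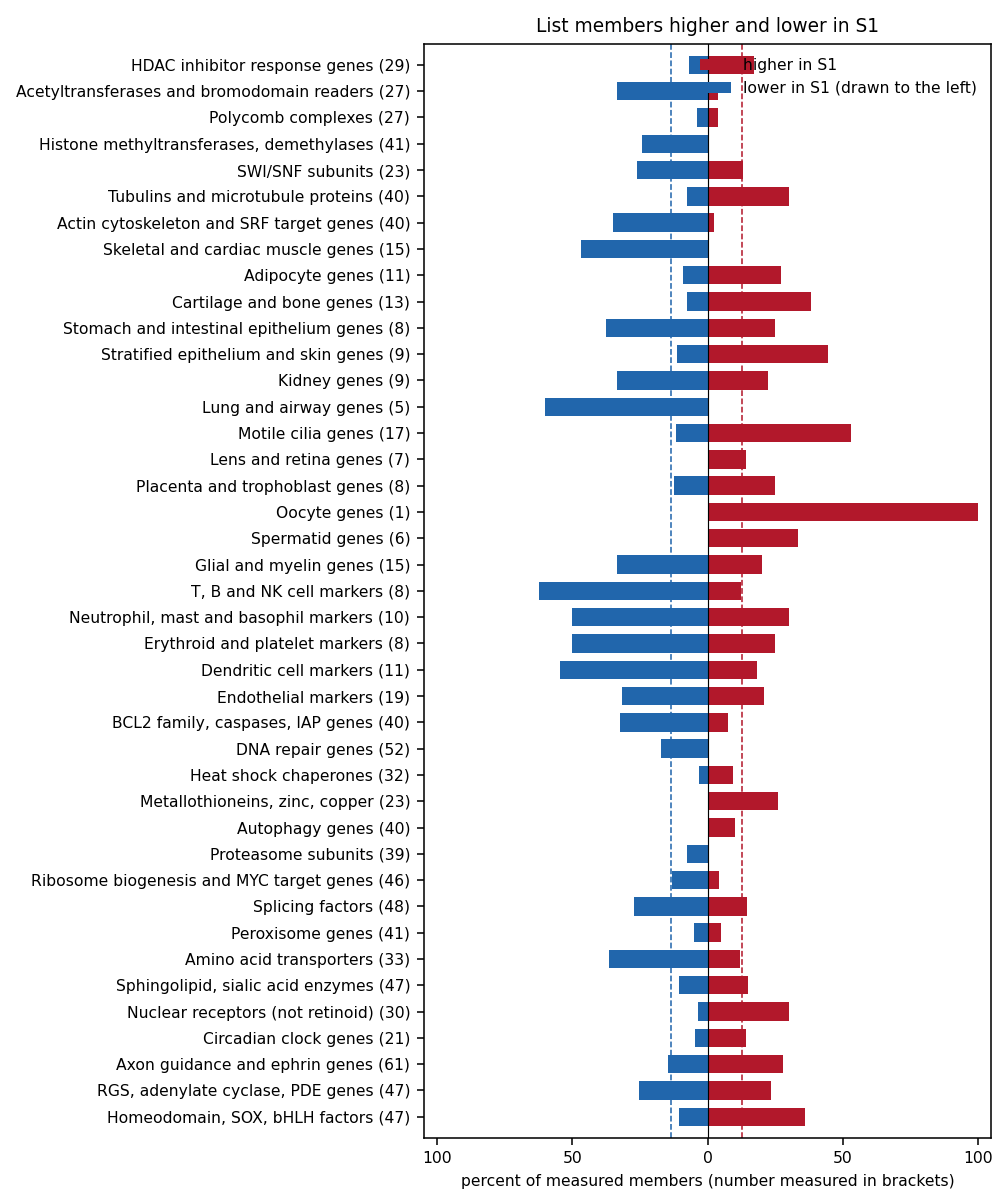
Percent of the measured members of 41 gene lists that were higher (red, to the right) and lower (blue, to the left) in S1, with the percent over all genes as dashed lines and the number of measured members in brackets. Motile cilia, homeodomain, nuclear receptor and microtubule lists reach furthest right among lists with over 15 members, the first 3 of them largely through genes over 1 CPM in S1 alone, and the immune, muscle and actin lists reach to the left.

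Most genes typical of tissues other than liver were under 1 CPM in both libraries. Of 353 genes on the 13 tissue lists, 122 were measured, and 61 had no read in either library. Over all 30138 entries, 14810 were measured and 7740 had no read in either. Of the 122, 34 were higher and 26 lower, and 37 reached 1 CPM in S1 alone against 10 in S0 alone. Among those with 1 CPM in both, 9 were higher and 19 lower. The lists did not share a direction. Cartilage and bone genes had 5 higher and 1 lower of 13, and 2 higher and 1 lower of the 8 with 1 CPM in both libraries. They included the cartilage proteoglycan gene Acan with 25.7 CPM in S1 and 5.32 CPM in S0 (4.83-fold higher, 4.03 to 5.82), the alkaline phosphatase gene Alpl with 4.96 CPM in S1 and 0.225 CPM in S0 (22.1-fold higher, 9.90 to 61.2) and the cartilage collagen gene Col2a1 with 1.79 CPM in S1 and 0.112 CPM in S0 (15.9-fold higher, 5.16 to 79.8). Acan was at 0.683 CPM in S2 and 0.427 CPM in S3 later, and Alpl at 1.503 CPM in S2 and 2.39 CPM in S3. Sox9, the factor of cartilage and of bile ducts, was not called (5.72 CPM in S1 and 3.33 CPM in S0).

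Of 17 motile cilia genes 9 were higher and 2 lower, but 8 of the 17 reached 1 CPM in S1 alone, and with 1 CPM in both libraries 2 were higher and 2 lower. Without TMM factors 11 of the list were higher and 0 lower. The central apparatus gene Spag6 had 2.38 CPM in S1 and 0.112 CPM in S0, the radial spoke gene Rsph4a 4.89 CPM in S1 and 0.711 CPM in S0 and the axonemal dynein gene Dnah11 2.65 CPM in S1 and 0.300 CPM in S0. Foxj1, the master factor of motile cilia, was on the other side, 3.26-fold lower (2.18 to 4.99) with 1.14 CPM in S1 and 3.71 CPM in S0, and stood at 0.637 CPM in S2 and 17.0 CPM in S3. Skin genes included Ivl, the cornified envelope protein involucrin, with 212 CPM in S1 and 53.2 CPM in S0 (3.98-fold higher, 3.76 to 4.22), and the desmosome genes Pkp1 (5.41 CPM in S1 and 0.861 CPM in S0) and Dsc3 (33 reads in S1 and 0 in S0), with 4 higher and 1 lower of 9, 3 of them through S1 alone and 2 through S0 alone. Adipocyte genes had 3 higher and 1 lower of 11, 4 of the 11 through S1 alone, among them Cidea, a lipid droplet protein of brown fat (72 reads in S1 and 0 in S0, at least 22.1-fold higher). Dgat2, which makes triglyceride, was higher too (65.5 CPM in S1 and 15.9 CPM in S0, 4.13-fold higher, 3.71 to 4.60). The adipocyte factor gene Pparg was not called (5.89 CPM in S1 and 7.75 CPM in S0). Muc2, the intestinal mucin (3.51 CPM in S1 and 0.150 CPM in S0), and Tfap2c, a trophoblast factor (1.79 CPM in S1 and 0.0374 CPM in S0), were higher. Gnat1, the rod transducin (1.93 CPM in S1 and 0.112 CPM in S0), Kit, the receptor of germ cells and mast cells (4.03 CPM in S1 and 0.187 CPM in S0), and Spaca1, of the sperm acrosome (1.27 CPM in S1 and 0.0374 CPM in S0), were higher too, each from few reads in S0. Ngfr, the neurotrophin receptor of glia and of stellate cells, was 19.5-fold higher (11.2 to 37.1) with 9.51 CPM in S1 and 0.487 CPM in S0, and was at 0.319 CPM in S2 and 0.299 CPM in S3.

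Of 15 muscle genes 7 were lower and 0 higher, and of the 10 with 1 CPM in both libraries 5 were lower. Without TMM factors 6 were lower and 2 higher. Myl7, an atrial myosin light chain, had 2.03 CPM in S1 and 19.9 CPM in S0 (9.80-fold lower, 7.48 to 13.1). Acta1, the skeletal actin, 5.85 CPM in S1 and 30.5 CPM in S0 (5.22-fold lower, 4.42 to 6.19). Mef2c, a factor of muscle and myeloid cells, 12.3 CPM in S1 and 62.4 CPM in S0 (5.07-fold lower, 4.52 to 5.70), and desmin (Des) 16.2 CPM in S1 and 44.7 CPM in S0 (2.77-fold lower, 2.49 to 3.09). Myod1 had 1 read in S1 and 0 in S0, and Myf5 and Myog had 0 reads in both. Of 9 kidney genes 2 were higher, with Podxl, a sialomucin of podocytes and mesothelium, at 144 CPM in S1 and 38.5 CPM in S0 (3.73-fold higher, 3.48 to 3.99), and 3 lower, with Cdh16 at 1.55 CPM in S1 and 11.7 CPM in S0 (7.56-fold lower, 5.52 to 10.6). Wt1, a factor of podocytes and mesothelium, was not called (22.8 CPM in S1 and 17.3 CPM in S0).

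Markers of blood and vessel cells other than macrophages were called lower more often than higher, and many of them passed the limit of 1 CPM through 1 library alone. Lymphocyte markers had 5 lower and 1 higher of 8, 3 of which had 1 CPM in both libraries, with Il7r at 1.86 CPM in S1 and 33.7 CPM in S0 (18.1-fold lower, 13.8 to 24.3) and the B cell gene Cd22 at 0.310 CPM in S1 and 7.23 CPM in S0 (23.3-fold lower, 12.03 to 51.8). The NK cell gene Ncr1 had 0 reads in both libraries, and the T cell gene Cd3g had 3 in S1 and 0 in S0. Dendritic cell markers had 6 lower and 2 higher of 11. Sirpa, an inhibitory receptor of myeloid cells, was 20.1-fold lower (19.1 to 21.2) with 51.3 CPM in S1 and 1034 CPM in S0. Cd74, the invariant chain of MHC class II, was 5.89-fold lower (5.04 to 6.93). Flt3, the receptor of dendritic cell progenitors, had 37 reads in S1 and 0 in S0. Neutrophil and mast cell markers had 5 lower and 3 higher of 10, and the 3, all through S1 alone, were Cxcr2 (4.34 CPM in S1 and 0.150 CPM in S0), Kit and Prtn3 (2.51 CPM in S1 and 0.562 CPM in S0). Red cell and platelet markers had 4 lower and 2 higher of 8, with the platelet chemokine Pf4, which macrophages also express, at 64.1 CPM in S1 and 569 CPM in S0 (8.87-fold lower, 8.45 to 9.31) and Ppbp at 0.103 CPM in S1 and 5.88 CPM in S0 (56.9-fold lower, 19.1 to 279). Of 19 endothelial markers 6 were lower and 4 higher, and 3 lower and 2 higher of the 12 with 1 CPM in both libraries, with Stab1, which macrophages share, at 31.8 CPM in S1 and 628 CPM in S0 (19.8-fold lower, 18.5 to 21.2) and the von Willebrand factor gene Vwf at 1.24 CPM in S1 and 13.8 CPM in S0 (11.1-fold lower, 7.88 to 16.1).

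Of 40 genes of the BCL2 family, caspases and inhibitors of apoptosis, 13 were lower (32.5%) and 3 higher. The 3 Bcl2a1 genes, which encode survival factors of blood cells, were the farthest, with 0.964 CPM in S1 and 23.2 CPM in S0 for Bcl2a1d (24.1-fold lower, 16.5 to 36.6), and as near copies they may share reads. Birc5, the mitotic survivin, had 6.30 CPM in S1 and 32.3 CPM in S0 (5.13-fold lower, 4.37 to 6.05). The caspase genes Casp1 (5.13 CPM in S1 and 25.9 CPM in S0) and Casp8 (18.01 CPM in S1 and 57.9 CPM in S0) and the pore protein gene Gsdmd (10.6 CPM in S1 and 51.2 CPM in S0) were lower, as was Bak1 (21.8 CPM in S1 and 85.0 CPM in S0, 3.89-fold lower, 3.56 to 4.26). The higher genes were Diablo (72.2 CPM in S1 and 25.5 CPM in S0, 2.83-fold higher, 2.59 to 3.09), Bnip3l (288 CPM in S1 and 127 CPM in S0, 2.26-fold higher, 2.17 to 2.35) and Bik (1.48 CPM in S1 and 0.300 CPM in S0). Bcl2 (16.5 CPM in S1 and 12.4 CPM in S0), Bbc3 (11.1 CPM in S1 and 12.8 CPM in S0) and Bcl2l11 (55.1 CPM in S1 and 36.9 CPM in S0) were not called. Of 52 DNA repair genes 9 were lower (17.3%, near the 13.4% over all genes) and 0 higher, among them Neil3 (0.827 CPM in S1 and 16.1 CPM in S0, 19.5-fold lower, 12.9 to 30.8), Fancd2 (3.34 CPM in S1 and 22.9 CPM in S0, 6.87-fold lower, 5.54 to 8.601) and Exo1 (4.75-fold lower, 3.83 to 5.93), several of which are known to be high in dividing cells. Mgmt, which removes alkyl groups from guanine, had 14.9 CPM in S1 and 28.9 CPM in S0. Tdg, the glycosylase of active demethylation, had 7.34 CPM in S1 and 9.13 CPM in S0, and neither was called.

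Few chaperone and autophagy genes were called. Of 32 heat shock chaperone genes 3 were higher (9.38%, against 12.7% over all genes) and 1 lower, with Hspa2 at 81.7 CPM in S1 and 24.6 CPM in S0 (3.33-fold higher, 3.05 to 3.63), the inducible Hspa1b at 21.5 CPM in S1 and 8.57 CPM in S0 (2.51-fold higher, 2.15 to 2.93) and Hspa12a at 21.6 CPM in S1 and 3.71 CPM in S0 (5.84-fold higher, 4.71 to 7.29). Hspa8 (1488 CPM in S1 and 1767 CPM in S0) and Hsp90aa1 (1536 CPM in S1 and 869 CPM in S0), which are abundant in all cells, were not called. Of 40 autophagy genes 4 were higher (10%) and 0 lower, and without TMM factors 8 were higher and 0 lower. Atg12, a ubiquitin-like protein, had 274 CPM in S1 and 72.6 CPM in S0 (3.77-fold higher, 3.59 to 3.97). and Gabarapl2 121 CPM in S1 and 40.2 CPM in S0 (3.01-fold higher, 2.81 to 3.23). Map1lc3b had 334 CPM in S1 and 142 CPM in S0 (2.35-fold higher, 2.26 to 2.44) and Calcoco1 113 CPM in S1 and 46.2 CPM in S0 (2.44-fold higher, 2.29 to 2.61). These 4 levels stayed above that of S0 later, with 178 CPM in S2 and 152 CPM in S3 for Atg12. The receptor gene Sqstm1 (749.9 CPM in S1 and 549 CPM in S0) was not called. Of 23 metallothionein, zinc and copper genes 6 were higher and 0 lower, with Slc30a4, a zinc exporter, at 220.5 CPM in S1 and 74.7 CPM in S0 (2.95-fold higher, 2.81 to 3.11) and the copper carriers Atox1 (104 CPM in S1 and 45.8 CPM in S0, 2.28-fold higher, 2.13 to 2.44) and Atp7a (193 CPM in S1 and 89.6 CPM in S0, 2.16-fold higher, 2.06 to 2.27) beside Mt1, Mt2 and Slc30a3.

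Among 39 proteasome genes the 3 lower ones were Psmb8, Psmb9 and Psmb10, which are exactly the catalytic subunits of the immunoproteasome. Psmb10 had 3.96 CPM in S1 and 32.5 CPM in S0 (8.21-fold lower, 6.76 to 10.1), Psmb8 6.37 CPM in S1 and 31.6 CPM in S0 (4.95-fold lower, 4.22 to 5.84) and Psmb9 1.79 CPM in S1 and 9.96 CPM in S0 (5.56-fold lower, 4.12 to 7.64). None of the other 36 was called, and their median log2 ratio was 0.12. Psmb5, the constitutive counterpart of Psmb8, had 21.8 CPM in S1 and 28.3 CPM in S0. Macrophages are known to express immunoproteasome subunits, and the macrophage marker sum was lower in S1 too. The part of macrophages in these lower levels was not tested.

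Of 48 measured splicing factor genes 13 were lower and 7 higher, but 6 of the 7 reached 1 CPM in S1 alone, so the limit fixed their direction, and with 1 CPM in both libraries 13 were lower and 1 higher. The lower ones included Ptbp1, a repressor of neuronal exons (130.0 CPM in S1 and 354 CPM in S0, 2.73-fold lower, 2.62 to 2.83), Hnrnph1 (62.8 CPM in S1 and 189 CPM in S0, 3.01-fold lower, 2.85 to 3.18), Srsf6 (63.8 CPM in S1 and 173 CPM in S0, 2.71-fold lower, 2.57 to 2.87) and U2af2 (65.1 CPM in S1 and 160.2 CPM in S0, 2.46-fold lower, 2.33 to 2.60). Ptbp2, the relative of Ptbp1 that takes over in young neurons, was also lower (15.8 CPM in S1 and 45.9 CPM in S0, 2.91-fold lower, 2.61 to 3.25). The higher ones included Nova2 (2.76 CPM in S1 and 0.0749 CPM in S0), Celf6 (90 reads in S1 and 0 in S0), Celf4 (20.7 CPM in S1 and 3.52 CPM in S0, 5.87-fold higher, 4.72 to 7.38) and Elavl2 (3.34 CPM in S1 and 0.487 CPM in S0), known from neurons, and Esrp1, a factor of epithelia (2.89 CPM in S1 and 0.0374 CPM in S0). Of these Celf4 alone was above 1 CPM in S0, and Rbfox3 stayed under the limit with 7 reads in S1 and 3 in S0. Among 46 ribosome biogenesis and MYC target genes 6 were lower (13.04%, near the 13.4% over all genes) and 2 higher (4.35%, against 12.7%). The lower ones included the pseudouridine synthase gene Dkc1 at 13.2 CPM in S1 and 48.0 CPM in S0 (3.64-fold lower, 3.24 to 4.09). Also lower was the rDNA transcription factor gene Ubtf at 32.5 CPM in S1 and 101 CPM in S0 (3.11-fold lower, 2.89 to 3.35). Myc (18.7 CPM in S1 and 36.5 CPM in S0) was not called. Its antagonist gene Mxd1 was higher (40.4 CPM in S1 and 16.2 CPM in S0, 2.49-fold higher, 2.23 to 2.78), as was Odc1, the first enzyme of polyamine synthesis (866 CPM in S1 and 378 CPM in S0, 2.29-fold higher, 2.24 to 2.34).

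Amino acid transporters were lower in 12 of 33 cases and higher in 4, with a median log2 ratio of -0.81. Slc7a8 and Slc7a7, light chains of the heteromeric transporters, had 12.8 CPM in S1 and 132 CPM in S0 (10.3-fold lower, 9.23 to 11.5) and 4.62 CPM in S1 and 25.5 CPM in S0 (5.53-fold lower, 4.59 to 6.71). Their shared heavy chain Slc3a2 had 93.4 CPM in S1 and 196 CPM in S0 (2.10-fold lower, 2.01 to 2.20). Slc38a2, which brings in neutral amino acids, had 109 CPM in S1 and 346 CPM in S0 (3.18-fold lower, 3.06 to 3.32). Slc6a6, the taurine transporter, had 389.6 CPM in S1 and 949 CPM in S0 (2.43-fold lower, 2.38 to 2.49). Higher were Slc1a4, for alanine and serine (141 CPM in S1 and 40.1 CPM in S0, 3.52-fold higher, 3.29 to 3.77), Slc38a3 (17.1 CPM in S1 and 6.74 CPM in S0), Slc6a17 (11.2 CPM in S1 and 3.78 CPM in S0) and the glutamate transporter Slc1a1 (3.65 CPM in S1 and 0.0374 CPM in S0). The cystine transporter gene Slc7a11 was not called at this step (94.6 CPM in S1 and 109 CPM in S0) and stood at 552 CPM in S2 and 934 CPM in S3. Peroxisome genes were quiet, 2 higher and 2 lower of 41, with catalase (Cat) at 252 CPM in S1 and 207 CPM in S0. Among 47 sphingolipid and sialic acid genes 7 were higher (14.9%) and 5 lower (10.6%), near the 12.7% and 13.4% over all genes. Of the 47, 5 passed through S1 alone. With 1 CPM in both libraries 2 were higher and 4 lower, and without TMM factors 9 of the list were higher and 3 lower. The higher ones included the alpha-2,8-sialyltransferase genes St8sia1 (2.69 CPM in S1 and 0.374 CPM in S0), St8sia2 (3.03 CPM in S1 and 0.0749 CPM in S0), St8sia3 (1.03 CPM in S1 and 0.150 CPM in S0) and St8sia5 (1.76 CPM in S1 and 0.112 CPM in S0), which add chained sialic acids and were all under 1 CPM in S0. B4galnt1, which makes the complex gangliosides, was 4.44-fold lower (3.98 to 4.96) with 14.2 CPM in S1 and 63.2 CPM in S0. St6gal1, the liver sialyltransferase, was 3.29-fold lower (3.07 to 3.52) with 38.5 CPM in S1 and 126 CPM in S0.

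Of 30 nuclear receptor genes 9 were higher and 1 lower, 6 of the 30 through S1 alone, and with 1 CPM in both libraries 4 were higher and 1 lower. Nr3c2, the mineralocorticoid receptor gene, had 26.4 CPM in S1 and 6.29 CPM in S0 (4.20-fold higher, 3.55 to 4.99), Thrb, a thyroid hormone receptor, 11.7 CPM in S1 and 2.81 CPM in S0 (4.18-fold higher, 3.25 to 5.45). Vdr, the vitamin D receptor, had 10.2 CPM in S1 and 3.26 CPM in S0 (3.14-fold higher, 2.47 to 4.04). These were above 1 CPM in both libraries. Rorb (7.99 CPM in S1 and 0.412 CPM in S0), Nr4a3 (2.82 CPM in S1 and 0.0749 CPM in S0) and Ppara, the fatty acid receptor of liver (1.83 CPM in S1 and 0.337 CPM in S0), came from under 1 CPM in S0. Nr1h3, the oxysterol receptor of liver and macrophages, was 3.23-fold lower (2.51 to 4.21) with 2.82 CPM in S1 and 9.13 CPM in S0. Clock genes had 3 higher (14.3%, near the 12.7% over all genes) and 1 lower of 21, with Per1 at 25.6 CPM in S1 and 9.32 CPM in S0 (2.74-fold higher, 2.37 to 3.18) and Bhlhe41 at 7.23 CPM in S1 and 26.5 CPM in S0 (3.66-fold lower, 3.13 to 4.29). The core factor gene Arntl was close to the limit (29.3 CPM in S1 and 14.1 CPM in S0).

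Axon guidance genes had 17 higher and 9 lower of 61, 9 of which passed through S1 alone and 1 through S0 alone. Of the 51 with 1 CPM in both libraries, 10 were higher and 8 lower. Among ligands, Efna3, an ephrin, had 18.7 CPM in S1 and 0.749 CPM in S0 (24.9-fold higher, 16.0 to 41.1), Ntn1, the netrin, 17.98 CPM in S1 and 1.61 CPM in S0 (11.2-fold higher, 8.18 to 15.6). Sema3e, a semaphorin, had 464 CPM in S1 and 190.3 CPM in S0 (2.44-fold higher, 2.36 to 2.52). Among receptors, Plxna3 had 70.4 CPM in S1 and 7.67 CPM in S0 (9.17-fold higher, 7.94 to 10.6) and Ephb6 26.5 CPM in S1 and 3.33 CPM in S0 (7.94-fold higher, 6.37 to 10.0). The lower members included the semaphorin receptors Plxnc1 (8.92 CPM in S1 and 80.6 CPM in S0, 9.04-fold lower, 7.94 to 10.3), Plxnd1 (41.9 CPM in S1 and 174 CPM in S0), Nrp1 (109 CPM in S1 and 329 CPM in S0) and Nrp2 (75.2 CPM in S1 and 394 CPM in S0, 5.24-fold lower, 5.01 to 5.49) and the leukocyte semaphorin Sema4d (12.7 CPM in S1 and 84.0 CPM in S0). Of 47 genes of G protein regulation and cyclic nucleotides, 11 were higher and 12 lower, and with 1 CPM in both libraries 6 were higher and 9 lower. Rgs17 had 34.7 CPM in S1 and 2.21 CPM in S0 (15.7-fold higher, 12.1 to 20.8), and Pde9a, a cyclic GMP phosphodiesterase, 6.03 CPM in S1 and 0.449 CPM in S0 (13.4-fold higher, 7.49 to 26.5). Rgs14 had 0.964 CPM in S1 and 11.9 CPM in S0 (12.3-fold lower, 8.35 to 18.8), and Rgs18, of platelets and myeloid cells, 0.172 CPM in S1 and 4.31 CPM in S0 (25.0-fold lower, 10.4 to 78.5). The adenylate cyclase gene Adcy7 had 36.8 CPM in S1 and 266 CPM in S0 (7.22-fold lower, 6.77 to 7.70).

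Developmental transcription factors had 17 higher and 5 lower of 47, and 17 of the 47 reached 1 CPM in S1 alone. With 1 CPM in both libraries 2 were higher and 5 lower. Pou4f1, of sensory neurons, had 8.02 CPM in S1 and 0.262 CPM in S0 (30.6-fold higher, 14.6 to 77.0), Pou3f1 4.37 CPM in S1 and 0.187 CPM in S0 (23.4-fold higher, 9.75 to 73.2), Lhx5 4.03 CPM in S1 and 0.262 CPM in S0 (15.4-fold higher, 7.23 to 39.1) and the Notch target Hey1 8.99 CPM in S1 and 0.599 CPM in S0 (15.0-fold higher, 9.07 to 26.6). Only Six4 (16.6 CPM in S1 and 3.63 CPM in S0, 4.57-fold higher, 3.67 to 5.75) and Msx1 (4.99 CPM in S1 and 1.05 CPM in S0, 4.76-fold higher, 3.16 to 7.42) among the higher ones were above 1 CPM in S0. Those lower were well expressed in S0, such as Tbx20 (30.5 CPM in S1 and 100.2 CPM in S0, 3.29-fold lower, 3.05 to 3.55), Atoh8 (2.86 CPM in S1 and 22.4 CPM in S0, 7.82-fold lower, 6.21 to 9.96) and Prrx1, of mesenchyme (2.58 CPM in S1 and 18.01 CPM in S0, 6.97-fold lower, 5.46 to 9.02). The neural genes Neurod1 (13 reads in S1 and 0 in S0) and Sox2 (8 reads in S1 and 0 in S0) stayed under the limit. Id1, which opposes bHLH factors, had 155 CPM in S1 and 179 CPM in S0.

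**Figure D4:**
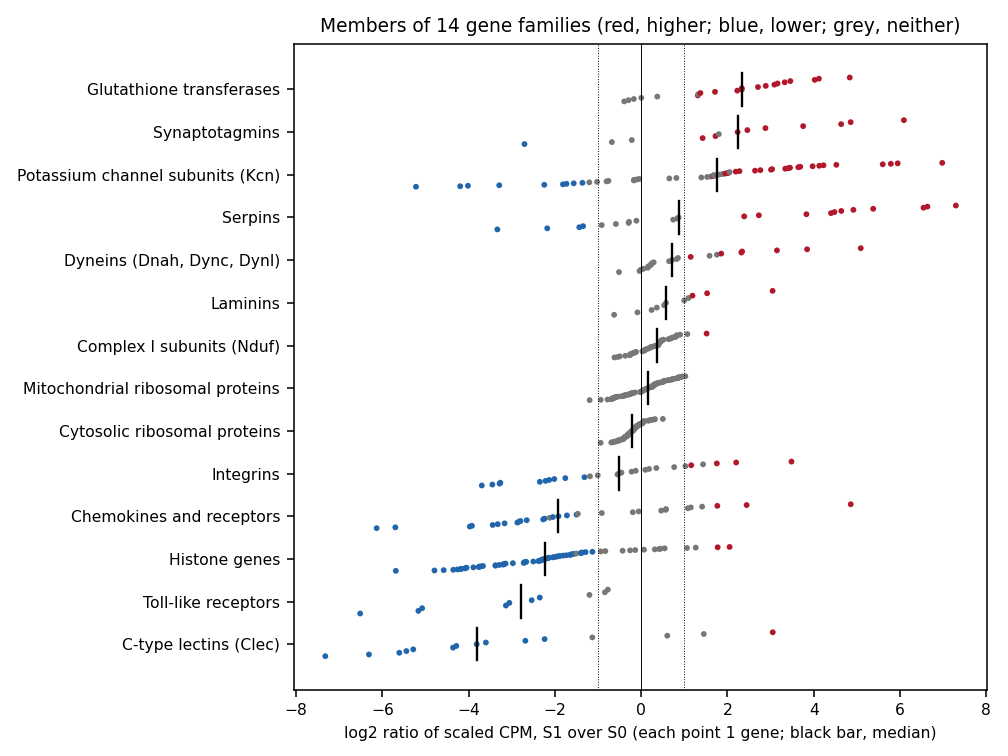
Log2 ratio of scaled CPM, S1 over S0, for each measured gene of 14 families taken by gene symbol (red higher, blue lower, grey neither, black bar the median, dotted lines 2-fold). Glutathione transferases and synaptotagmins lie mostly to the right, ribosomal and complex I genes close to 0, and histone genes, Toll-like receptors and C-type lectins to the left.

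Families taken by gene symbol added groups that the lists did not hold, and members named from them were chosen after their values were seen. Glutathione transferases, which conjugate drugs and lipid peroxides to glutathione, had 15 higher and 0 lower of 21, with a median log2 ratio of 2.33. Gstp1 had 748 CPM in S1 and 83.7 CPM in S0 (8.94-fold higher, 8.56 to 9.34), Gsta4 449 CPM in S1 and 96.0 CPM in S0 (4.68-fold higher, 4.48 to 4.88) and Gstm1 315 CPM in S1 and 42.6 CPM in S0 (7.40-fold higher, 6.95 to 7.87), and the deposited RPKM of Gstp1 was 390.0 RPKM in S1 and 38.8 RPKM in S0. Of those not called, Gsto1 had 294 CPM in S1 and 331 CPM in S0 and Gstz1 16.7 CPM in S1 and 16.7 CPM in S0. Of the 15, 11 were above 1 CPM in both libraries. Serpins, a family of protease inhibitors, had 11 higher and 4 lower of 23, and 8 higher and 4 lower among those with 1 CPM in both libraries. The alpha-1-antitrypsin genes Serpina1a (556 CPM in S1 and 24.9 CPM in S0) and Serpina1d (97.8 CPM in S1 and 1.05 CPM in S0, 93.3-fold higher, 64.4 to 141) were higher, and Serpinh1, the collagen chaperone, lower (216 CPM in S1 and 584 CPM in S0, 2.70-fold lower, 2.62 to 2.78). Serpina1 and Gst genes have close paralogs, so reads may be shared within each family.

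Potassium channel genes had 23 higher and 9 lower of 50, and 25 of the 50 reached 1 CPM in S1 alone. With 1 CPM in both libraries 7 were higher and 6 lower, such as Kcnn3 (10.0 CPM in S1 and 1.61 CPM in S0, 6.23-fold higher, 4.51 to 8.79) against Kcnn4, the calcium-activated channel of blood cells (1.69 CPM in S1 and 62.9 CPM in S0, 37.3-fold lower, 28.1 to 50.6). Synaptotagmins, the calcium sensors of exocytosis, had 9 higher and 1 lower of 13, and 4 higher and 0 lower among those with 1 CPM in both libraries (6 of the 13 passed through S1 alone), Syt11 (47.3 CPM in S1 and 10.0 CPM in S0, 4.71-fold higher, 4.13 to 5.39) and Syt14 (49.9 CPM in S1 and 18.6 CPM in S0, 2.68-fold higher, 2.42 to 2.98) included. Laminins of basement membranes had 3 higher and 0 lower of 11, among them Lama3 with 24.1 CPM in S1 and 8.35 CPM in S0 and Lama1 with 11.1 CPM in S1 and 1.35 CPM in S0. Integrins had 4 higher and 10 lower of 27. The laminin-binding Itga6 (754 CPM in S1 and 338 CPM in S0, 2.23-fold higher, 2.18 to 2.29) and Itga7 (32.2 CPM in S1 and 2.88 CPM in S0, 11.2-fold higher, 8.86 to 14.3) were higher, and the leukocyte integrins Itgam (7.75 CPM in S1 and 84.6 CPM in S0) and Itga4 (11.95 CPM in S1 and 116 CPM in S0) and the fibronectin receptor Itga5 (39.2 CPM in S1 and 172 CPM in S0, 4.38-fold lower, 4.11 to 4.68) lower. Keratins had 4 higher and 1 lower of 9, 2 of the 9 through S1 alone, with Krt20, of intestinal and urothelial cells, at 707 CPM in S1 and 92.8 CPM in S0 (7.61-fold higher, 7.30 to 7.94) and the biliary Krt19 at 101 CPM in S1 and 239 CPM in S0 (2.36-fold lower, 2.26 to 2.47).

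Toll-like receptor genes had 7 lower and 0 higher of 10, C-type lectins 11 lower and 1 higher of 15 (7 of the 15 passed through S0 alone), and chemokines with their receptors 17 lower and 3 higher of 31. The macrophage marker sum was lower in S1 too, and the part of macrophages in these counts was not tested. Against these immune families, 3 families of housekeeping kind hardly moved. None of 80 cytosolic and none of 76 mitochondrial ribosomal protein genes was called, and 1 of 44 complex I genes was, the assembly factor Ndufaf2. Zinc finger genes named Zfp had 13 higher and 18 lower of 330, well under the shares over all genes. Transmembrane protein genes named Tmem, of mixed function, had 31 higher and 10 lower of 191, and 13 higher and 8 lower with 1 CPM in both libraries, since 19 passed through S1 alone.

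Some calls lay side by side on the chromosomes. In RefSeq gene order, among protein-coding genes that were measured, the longest run of neighbours with the same call was 9 higher genes on chromosome 12, Ppp4r4 with 5 Serpina1 and 3 Serpina3 genes. On chromosome 3, 6 Gstm genes formed another higher run. Lower runs held 7 Slfn genes on chromosome 11, with Slfn2 at 15.8 CPM in S1 and 168 CPM in S0, 7 genes from Clec4a1 to Cd163 on chromosome 6, 6 genes with the Sirpb1 group on chromosome 3, 6 with Pirb and Lair1 on chromosome 7, and 5 Ly6 genes on chromosome 15. Most of these runs are families of paralogs that can share reads.

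By chromosome the shares stayed near the background with few exceptions. On chromosome 13, 117 of 601 genes were lower, and without its 52 histone genes, 49 of them lower, 68 of 549 were (12.4%). On chromosome X 85 of 496 genes were higher (17.1%) and 65 lower, and on chromosome 12, 86 of 538 were higher (16.0%) and 51 lower. Of these genes, 57 on chromosome X and 61 on chromosome 12 reached 1 CPM in S1 alone. With 1 CPM in both libraries 42 of 418 were higher and 53 lower on chromosome X, and 45 of 447 higher and 43 lower on chromosome 12. None of the 13 genes of the mitochondrial chromosome was called. By kind of transcript, 89 of 277 unannotated long non-coding transcripts were higher (32.1%) and 18 lower, but 101 of the 277 reached 1 CPM in S1 alone. Weakly expressed genes as a whole had a similar share higher (29.2% under a mean of 3 CPM). With 1 CPM in both libraries 22 of 136 unannotated transcripts were higher and 8 lower. Under that restriction 50 of 949 genes under a mean of 3 CPM and 988 of 12853 genes over all were higher, so the limit does not account for all of the excess. Annotated long non-coding genes had 76 higher and 96 lower of 752.

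At the later stages the genes higher in S1 had come down on the whole. Their median level was 1.12 CPM in S0, 7.78 CPM in S1, 3.10 CPM in S2 and 3.33 CPM in S3, and the choice of genes for a high S1 level by itself favours a fall. The genes lower in S1 had medians of 34.8, 7.06, 6.92 and 9.90 CPM in the same order, and those called neither way 27.7, 27.3, 29.5 and 29.3 CPM. Individual genes differed. Mt2 had 29.3, 242, 176 and 157 CPM in S0, S1, S2 and S3, and Smarca2 25.2, 61.3, 68.0 and 68.2 CPM in S0, S1, S2 and S3, so both remained well above S0. Ngfr had 0.487, 9.51, 0.319 and 0.299 CPM in S0, S1, S2 and S3 and Acan 5.32, 25.7, 0.683 and 0.427 CPM in S0, S1, S2 and S3, so the S1 level stood alone for them. Among the lower genes, Coro1a had 143, 16.6, 3.23 and 1.41 CPM in S0, S1, S2 and S3, and Ptbp1 had 354, 130.0, 180.5 and 223 CPM in S0, S1, S2 and S3.

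**Figure D5:**
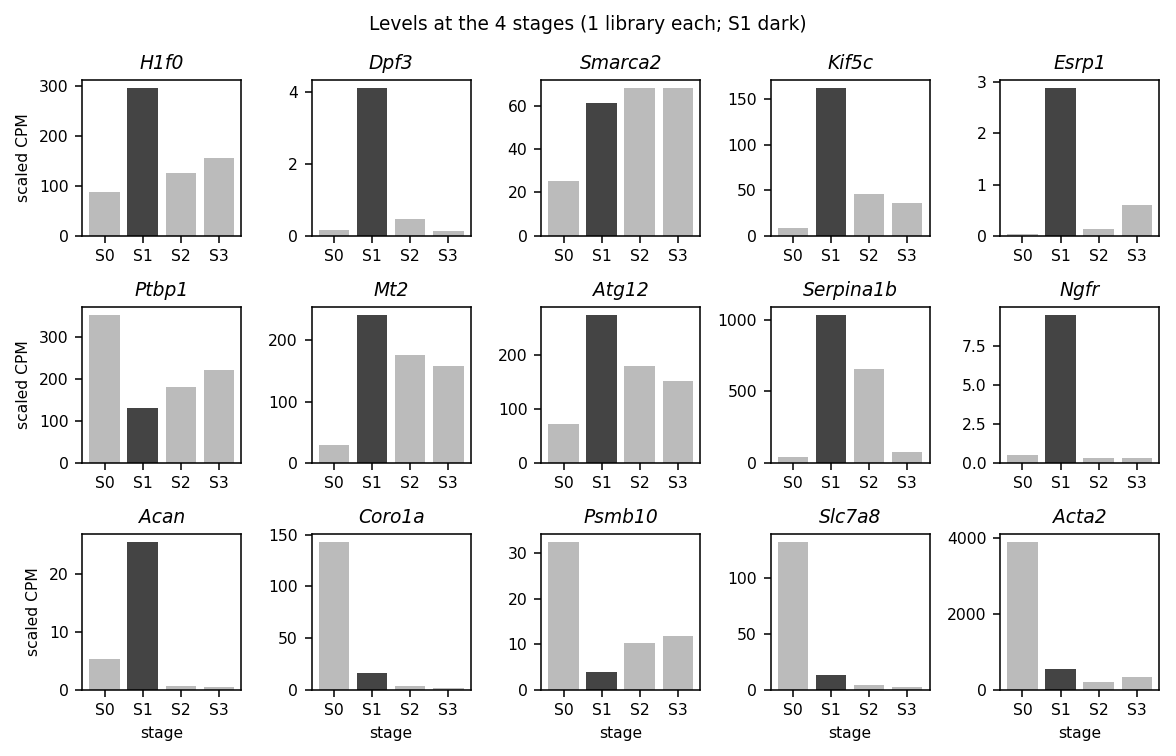
Scaled CPM of 15 genes at stages S0 to S3, 1 library per bar, with the S1 bar dark and each vertical axis starting at 0. H1f0, Kif5c, Ngfr and Acan peak in S1, Smarca2 stays near its S1 level in S2 and S3, and Coro1a, Slc7a8 and Acta2 are highest in S0.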

How the data were processed

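Total RNA of 4 stages was sequenced from a stranded total RNA kit, 1 library per stage, per the labels' protocols. Per the submitters' processing notes the build was mm9 and bcl2fastq was used. The aligner, the counter, the annotation and the use of strand were not given in the sources used here, so paralogs and overlapping antisense genes are uncertain. The authors deposited read counts per gene and RPKM per gene, named as such per the file headers. Counts were scaled to CPM with TMM factors over all 4 libraries (edgeR 4.0.16, R 4.3.3), and genes with at least 1 CPM in S0 or S1 were kept. Ratios carry Clopper-Pearson 95% intervals (Python 3.11.15, scipy 1.17.1), which were checked on simulated counts. Reads without molecular identifiers are not independent molecules. Genes at 0 reads in a library enter medians at their bound. The genes, the 41 lists, 56 symbol families and 11 motifs were chosen with earlier results of these data known.

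Named genes were genes marked in a list, up to 4 called members of each list with the interval bound farthest from no change, 20 higher and 20 lower genes outside the lists by that bound, 12 with the largest rise and 12 with the largest fall in CPM, and up to 12 with 0 reads in either library. Other genes named were chosen after their values were seen, and Rps6k kinases were then taken out of the ribosomal protein family. The alternatives run numbered 10 (DESeq2 1.42.0 size factors among them).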

Additional observations from a re-analysis of the deposited data

How the results depend on the processing

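No paired analysis was possible because each stage is 1 library and the labels give no replicate numbers. The counts of 1885 higher and 1985 lower genes stayed within 1.5 times without TMM factors (2289 and 1629), with TMM factors over S0 and S1 alone, with DESeq2 size factors, with the most abundant genes left out of the library sizes (2353 and 1636), without the filter (2244 and 2093) and with 99% intervals (1700 and 1814). They moved by more with other limits by construction, to 2954 higher and 3270 lower with a 1.5-fold rule and to 782 and 744 with a 4-fold rule, and the higher ones to 1123 with a filter of 5 CPM (39.8% of calls) and to 2992 by the ratio of deposited RPKM with no interval (58.1%). The median over all genes shifted by 0.19 (log2) without TMM factors and by 0.16 by RPKM, and with no TMM factors the medians of 6 lists near 0 changed sign. Of 297 named genes 225 were called. No call reversed, 7 were lost without TMM factors, 7 with the abundant genes left out, 80 with the 4-fold rule, 6 with 99% intervals and 2 by RPKM. Depth limits genes near 1 CPM most, and neither culture variation nor time in culture can be told apart from the treatment.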
